A study of Caenorhabditis elegans with 2 samples.

Results

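Weak E-box regions are the low-ranked regions of a ChIP-seq experiment on HLH-4 that hold, close to their summit, the DNA hexamer its protein family binds. They were chosen by measured values: their rank by the authors' signal value, among the 27820 lowest of the 30000 regions in the list made from both replicates pooled, and the presence of an E-box wholly within 50 bp of the summit. The E-boxes searched were CACCTG (with CAGGTG, its reverse complement) and CAGCTG, on both strands. There were 1369 such regions, so 4.92% of weak regions held the site. They were set against the 271 optimal peaks (those that the authors kept after their irreproducible discovery rate step) that held it, which were 49.7% of all optimal peaks, and against the 26451 weak regions that did not. The optimal peaks were the strongest regions of the pooled list, and 1635 regions lay between them and the weak range. Positions are on the ce11 build.

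Chromatin came from whole hermaphrodite first-stage (L1) larvae of Caenorhabditis elegans strain OP523, of genotype unc-119(tm4063) III with the transgene wgIs523. This strain stably makes HLH-4 with GFP and FLAG at its C terminus. Larvae were starved after bleaching to synchronize them and were taken 6 hours later, and an antibody against GFP was used. The 2 biological replicates form 1 group, so there is no comparison between conditions, and each test below sets one group of regions against another. Regions of one list are not replicate animals, and the p-values compare lists. Read depth is unknown. Intervals are exact Clopper-Pearson ones at 95%, taken over regions, and they cover counting error only. Strong binding in few cells and weak binding in many cannot be told apart in whole animals.

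HLH-4 belongs to the Achaete-Scute family of basic helix-loop-helix (bHLH) transcription factors, which in many animals promote neural fates. Such factors bind DNA as dimers with a partner called an E protein. Each partner contacts its own side of an E-box, a hexamer of the form CANNTG, and the bases at the centre and beside the hexamer influence how well a given dimer binds. In the worm, HLH-4 is known from the ADL neurons, a pair of chemosensory neurons of the head.

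The bases beside the site differed between weak regions and optimal peaks, so the sites themselves are shown first. Each line below gives 30 bases with the E-box in capitals, read from the WBcel235 genome sequence (ce11) and turned where needed so that the hexamer reads CACCTG. The first 7 belong to 7 of the 10 weak regions of best rank, and the last 3 to the 3 optimal peaks of best rank with that site.
weak, intergenic, chrX:5895306-5895335, plus strand: ttttttcaaaatCACCTGtccaaggttttg
weak, sre-30, chrII:12406547-12406576, plus strand: aggcttatgaaaCACCTGtcatttagtata
weak, ric-4, chrV:10272173-10272202, minus strand: ttaattatgtttCACCTGttctttgttcta
weak, sri-42, chrII:3142997-3143026, minus strand: tcccacaattttCACCTGtttccaaacgta
weak, intron, chrII:9144042-9144071, minus strand: ttcttattcaaaCACCTGcagtaccataat
weak, fbxl-2, chrIII:4757383-4757412, minus strand: aactcgaaaactCACCTGcacgaattcatc
weak, daf-10, chrIV:9146314-9146343, plus strand: tagaatgcagaaCACCTGtcattaagcaga
optimal, intergenic, chrX:12022663-12022692, plus strand: ttcaacatatatCACCTGtaataatttctt
optimal, sre-41, chrII:12387656-12387685, minus strand: gaagatcaatttCACCTGttcgaaggaaac
optimal, srz-82, chrIV:3482729-3482758, plus strand: agaaaaaaaaatCACCTGtcttccaagaaa

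All 3 optimal sites shown had a T just before the hexamer, and so did 4 of the 7 weak ones. The other 3 weak sites had an A there. Each of these sites had a C or T just after the hexamer. The weak ones come from the strong edge of the weak range, and the shares over all weak sites are given below. A second class of site, the palindrome CAGCTG, is shown by 2 of the 10 weak regions of best rank and by the strongest optimal peak that holds it as its nearest site.
weak, intron, chrX:12509330-12509359, plus strand: aaaaacagagaaCAGCTGtattgataagtc
weak, intergenic, chrIV:16194394-16194423, plus strand: tttgaaaactcaCAGCTGaacatcagcgaa
optimal, Y22F5A.11, chrV:10276222-10276251, plus strand: gttttgagaatgCAGCTGgattttcatttt

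The authors' signal value lay between 12.1 and 25.9 in weak E-box regions (median 15.9), and between 43.1 and 379.5 in optimal E-box peaks (median 67.1). These values chose the members and are given as a description. The 3 members just inside the limit had signal values of 25.87, 25.86 and 25.85. The 3 E-box regions just outside it had 26.05, 25.88 and 25.87. The limit therefore cuts through a continuous range of values.

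E-boxes were only slightly more frequent at weak summits than beside them. Over all 27820 weak regions, an E-box lay at the summit in 1369 (4.92%), and in windows of the same width centred 300 bp to the left and right it lay in 1146 (4.12%) and 1130 (4.06%). The summit exceeded the mean of both flanks by 0.83 percentage points, 1.20-fold, or 231 regions, which equals 16.9% of the members. On the left, 1294 regions had a site at the summit only, against 1071 at the flank only (two-sided exact sign test, Benjamini-Hochberg (BH) over both sides, adjusted p = 4.9e-06). On the right these were 1305 against 1066 (exact sign test, adjusted p = 2.0e-06). The difference was small and passed the test. Over all weak regions, mean G and C content was 33.0% at summits, against 34.0% and 33.9% at the left and right flanks. In weak regions with the site it was 37.1% at the summit, site included, against 34.9% and 34.3%. At coding-exon summits it was 38.7%, against 34.9% at both flanks. The part of base composition in the excess was not tested. Hexamers made of the same letters in another order (GTGCAC, as well as GTCCAC with its reverse complement GTGGAC, on both strands) lay at 2.78% of summits, against 2.84% and 2.67% of the flanks (exact sign test, adjusted p = 0.70 and 0.60). These hexamers were added after the E-box result had been seen. With each replicate's own list ranked and cut in the same way, 4.86% ± 0.0991 of weak summits held an E-box (SD, n = 2).

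Within the weak range the excess was uneven. Weak regions were split into 4 bins at ranks 20000, 10000 and 5000. From weakest to strongest, an E-box lay at 4.84% of summits beyond rank 20000, 4.18% between ranks 10000 and 20000, 5.30% between ranks 5000 and 10000 and 7.16% of the 2820 weak summits of better rank. It lay at 15.0% of the 1635 intermediate summits and at 49.7% of optimal ones. In the 4 weak bins the left flanks held it in 3.97%, 4.25%, 4.32% and 3.83% of regions, in the same order, and the right flanks in 3.99%, 4.05%, 4.02% and 4.43%. Between ranks 10000 and 20000 the difference from either flank did not pass the exact sign test (BH over 4 bins and 2 sides, adjusted p = 0.83 left and 0.76 right). The other 3 bins passed on both sides (exact sign test, the largest adjusted p = 0.032). Over all weak ranks together, as plotted by distance from the summit, weak regions had 12.2 site centres per 1000 regions in the 20-bp bin just left of the summit and 7.84 to 10.9 in the other bins out to 300 bp, against 154 per 1000 at optimal peaks in the bin just left of the summit.

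**Figure D1:**
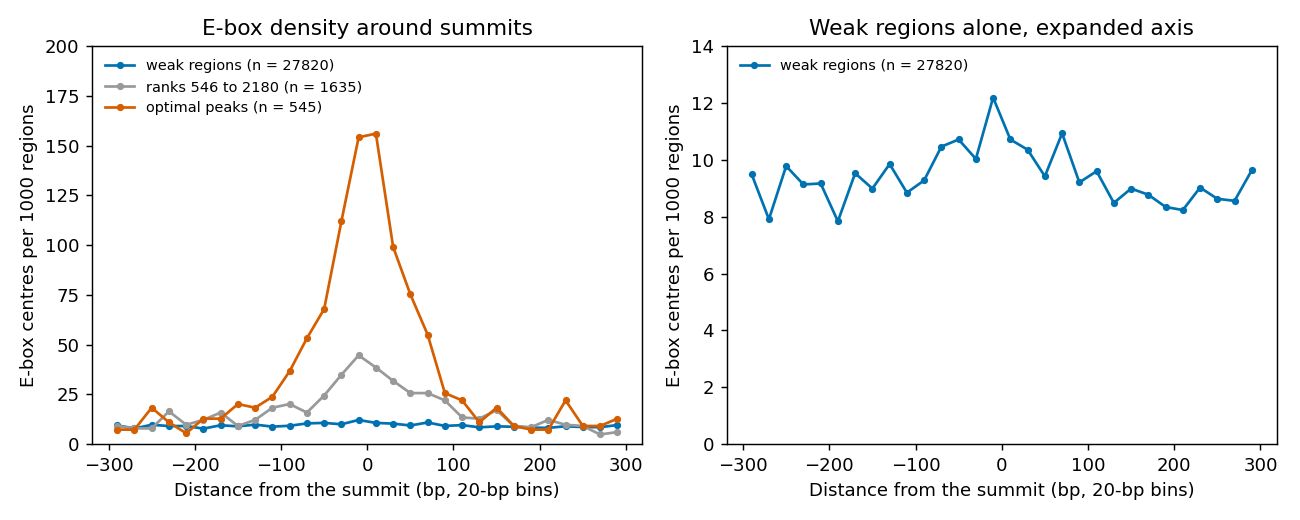
E-box centres per 1000 regions (vertical axis) in 20-bp bins of distance from the summit in bp (horizontal axis), for weak regions, intermediate regions and optimal peaks, with weak regions alone on an expanded axis at the right. Optimal peaks reach 156 per 1000 at the summit and weak regions 12.2.

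Sites in weak regions were less centred on the summit. The nearest site had its centre at most 10 bp from the summit in 335 of 1369 weak E-box regions (24.5%, interval 22.2% to 26.8%) and in 88 of 271 optimal E-box peaks (32.5%, interval 26.9% to 38.4%; two-sided Fisher's exact test, p = 0.0077). Of the 96 places a site can take in the window, 20 (20.8%) count as within 10 bp. The median distance was 22.5 bp in weak regions, against 17.5 bp in intermediate regions and 15.5 bp in optimal peaks. Counting in 10-bp steps outward, weak regions had 24.5%, 21.1%, 18.9% and 20.3% of their sites in the first 4 steps, and optimal peaks had 32.5%, 28.8%, 16.97% and 13.7%. The last, narrower step, from 40 to 48 bp, held 15.2% and 8.12%. Weak sites thus spread more evenly over the window than optimal ones. Their share within 10 bp still lay above the 20.8% of places, with 22.2% as the lower end of its interval. The difference between weak and optimal sites did not pass with sites sought within 25 bp of the summit (−1.03 points, Fisher's exact test, p = 0.80), for centring within 5 bp (−3.75 points, p = 0.11) or with the stronger 49.9% of optimal peaks (−7.25 points, p = 0.070). At 10 bp it was −16.8 points with the list of replicate 2 alone against −8.00 in the pooled list.

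Pairs of sites were rarer in weak regions than in optimal peaks. A second E-box lay in the window in 62 of 1369 weak E-box regions (4.53%, interval 3.49% to 5.77%) and in 50 of 271 optimal E-box peaks (18.5%, interval 14.02% to 23.6%; Fisher's exact test, p = 2.7e-13). No region of either group held more than 2. For scale, windows of the same width 300 bp to the left and right of all weak summits held an E-box in 4.12% and 4.06% of regions. Whether second sites in weak regions exceeded those shares was not tested. The start-to-start spacing of the pair had a median of 28 bp in weak regions (range 6 to 87 bp) and 36.5 bp in optimal peaks (range 11 to 82 bp). Of the 62, the 3 of best rank were a region upstream of sri-42, a chemoreceptor gene, one upstream of dmsr-5, a gene for a G protein-coupled receptor of the myosuppressin-receptor-related family, and one within ZK1320.13. With 25 bp either side of the summit in place of 50, the difference did not pass (−0.49 points, Fisher's exact test, p = 0.78).

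The CACCTG class was the nearest site in 866 of 1369 weak regions (63.3%, interval 60.6% to 65.8%) and in 195 of 271 optimal peaks (71.96%, interval 66.2% to 77.2%; Fisher's exact test, p = 0.0066). The rest were CAGCTG. With 25 bp either side the difference was of similar size and did not pass (−7.63 points, Fisher's exact test, p = 0.055). In the whole genome, 26113 of 46600 E-boxes were of the CACCTG class, a lower share than in weak regions. That comparison was not tested.

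The bases beside the site differed at many positions. Of 60 tests, 1 for each base at each of 5 positions on either side of CACCTG and 5 positions outward from CAGCTG, 22 (36.7%) passed (Fisher's exact test, BH over the 60). Of these, 17 concerned CACCTG. Beside it, T was less frequent in weak regions at the base just before the site, at 35.7% against 56.9% in optimal peaks (309 of 866 against 111 of 195, Fisher's exact test, adjusted p = 2.1e-06). The next base outward was T in 37.6% of weak sites and 55.4% of optimal sites, and the third was T in 36.8% and 50.3% (Fisher's exact test, adjusted p = 0.00012 and 0.0043). C stood at the second base in 16.2% of weak sites, against 4.10% of optimal sites (Fisher's exact test, adjusted p = 3.6e-05). The greatest difference after the site was in A at the first base, present in 23.9% of weak sites against 6.15% of optimal sites (207 of 866 against 12 of 195, Fisher's exact test, adjusted p = 1.2e-07). C and T were correspondingly rarer there, at 30.1% and 30.6% in weak regions, against 42.1% and 41.5% in optimal peaks (Fisher's exact test, adjusted p = 0.0084 and 0.013). The differences in T at the first and second bases before the site, C at the second and A just after it passed in every alternative run. With the stronger 49.9% of optimal peaks, where 13 of the 60 tests passed, T at the third base (−8.45 points) and C just after the site (−5.71 points in place of −11.9) did not pass (exact test, adjusted p = 0.23 and 0.37). With 25 bp either side of the summit, T at the third base (−7.34 points) did not pass (exact test, adjusted p = 0.28). C and T just after the site did not pass either (exact test, adjusted p = 0.076 and 0.15). Their differences were −11.4 and −9.51 points, in place of −11.9 and −10.9. Weak and optimal E-box summits also differed in feature, with 26.9% and 6.27% in coding exons. Over all weak regions, mean G and C content was 38.7% at coding-exon summits and 31.3% at intergenic ones. The part of feature and base composition in the flanking differences, beside CACCTG or CAGCTG, was not tested.

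Around CAGCTG, where the left and right side of each palindrome were both counted and are not independent, G was more frequent in weak regions at each of the first 3 bases outward. It made up 18.4%, 12.9% and 18.5% of weak sides, against 10.5%, 5.92% and 9.21% of optimal sides (Fisher's exact test, the largest adjusted p = 0.044). None of the 3 held in every setting. With replicate 1 alone the first and second bases did not pass (adjusted p = 0.11 and 0.36 by the same exact test), the second with 3.77 points in place of 7.001. With replicate 2 alone the third did not, with 5.12 points in place of 9.28 (exact test, adjusted p = 0.28). Of the 5 CAGCTG calls, 1 passed with 25 bp either side of the summit and 0 with the stronger 49.9% of optimal peaks.

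Of all 40 base shares beside CACCTG, the weak share lay between that of all 26113 CACCTG sites of the genome and that of optimal peaks in 33, and it was nearer to the genome's than to that of optimal peaks in 39. The 17 that passed were among the 33, and they had been picked for the distance between weak and optimal shares. Taking T just before, the genome's share was 32.2%, and for A just after it was 31.0%. The combination of T before and C or T after, put together after the values were seen and so untested, was present at 21.4% of CACCTG sites beyond rank 20000, 17.3% between ranks 10000 and 20000, 26.97% between ranks 5000 and 10000 and 33.3% in weak regions of better rank. It reached 37.6% in intermediate regions and 49.2% in optimal peaks. Of all 26113 CACCTG sites of the genome, 4227 had this combination. The upper part of the weak range stood near the intermediate ranks in this measure and the lower part far from them.

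Over the weak E-box regions of each replicate's own list, 1371 in replicate 1 and 1332 in replicate 2, T stood just before CACCTG in 35.7% ± 0.00605, a pair of sites in 4.92% ± 0.0481, a site within 10 bp of the summit in 22.9% ± 1.10, and a coding exon at the summit in 29.6% ± 1.12 (SD, n = 2). An SD of 2 values is imprecise and can fall far below counting error. In the pooled list, T before the site had an interval of 32.5% to 39.0%.

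**Figure D2:**
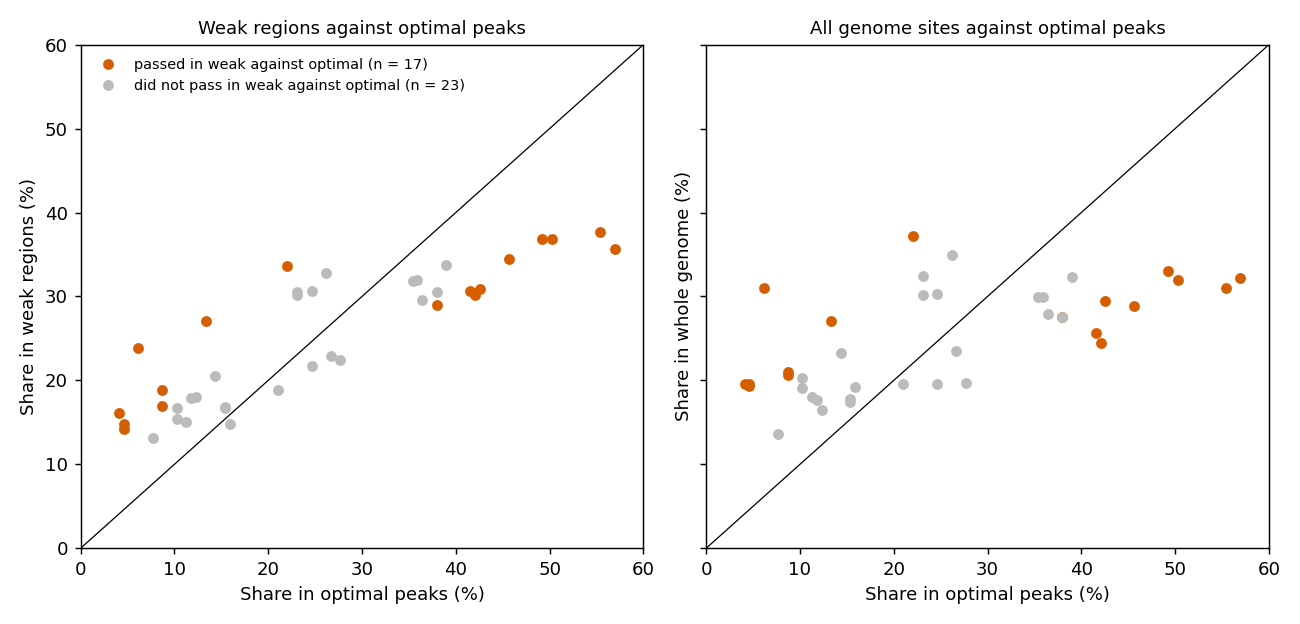
Share in percent of each base at each of 5 positions on either side of CACCTG (40 points), in weak regions (left, vertical axis) and in all sites of the genome (right, vertical axis), against the share in optimal peaks (horizontal axis). The 17 points that passed the test lie off the diagonal in the left panel.

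The genome held 46600 E-boxes of these classes. Of them, 1431 (3.07%) lay in a weak summit window, 277 (0.59%) in an intermediate one and 321 (0.69%) in an optimal one. Weak windows covered 2.80% of the genome, the intermediate windows 0.16% and optimal windows 0.055%, so the share of sites exceeded the share of bases by little in weak windows and by far more in optimal ones. Among CACCTG sites with T before and C or T after, 5.09% lay in weak windows and 2.79% in optimal ones. Among the remaining CACCTG sites these shares were 3.14% and 0.54%. These values describe where the sites fell, and the rule that chose the regions fixes part of them.

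**Figure D3:**
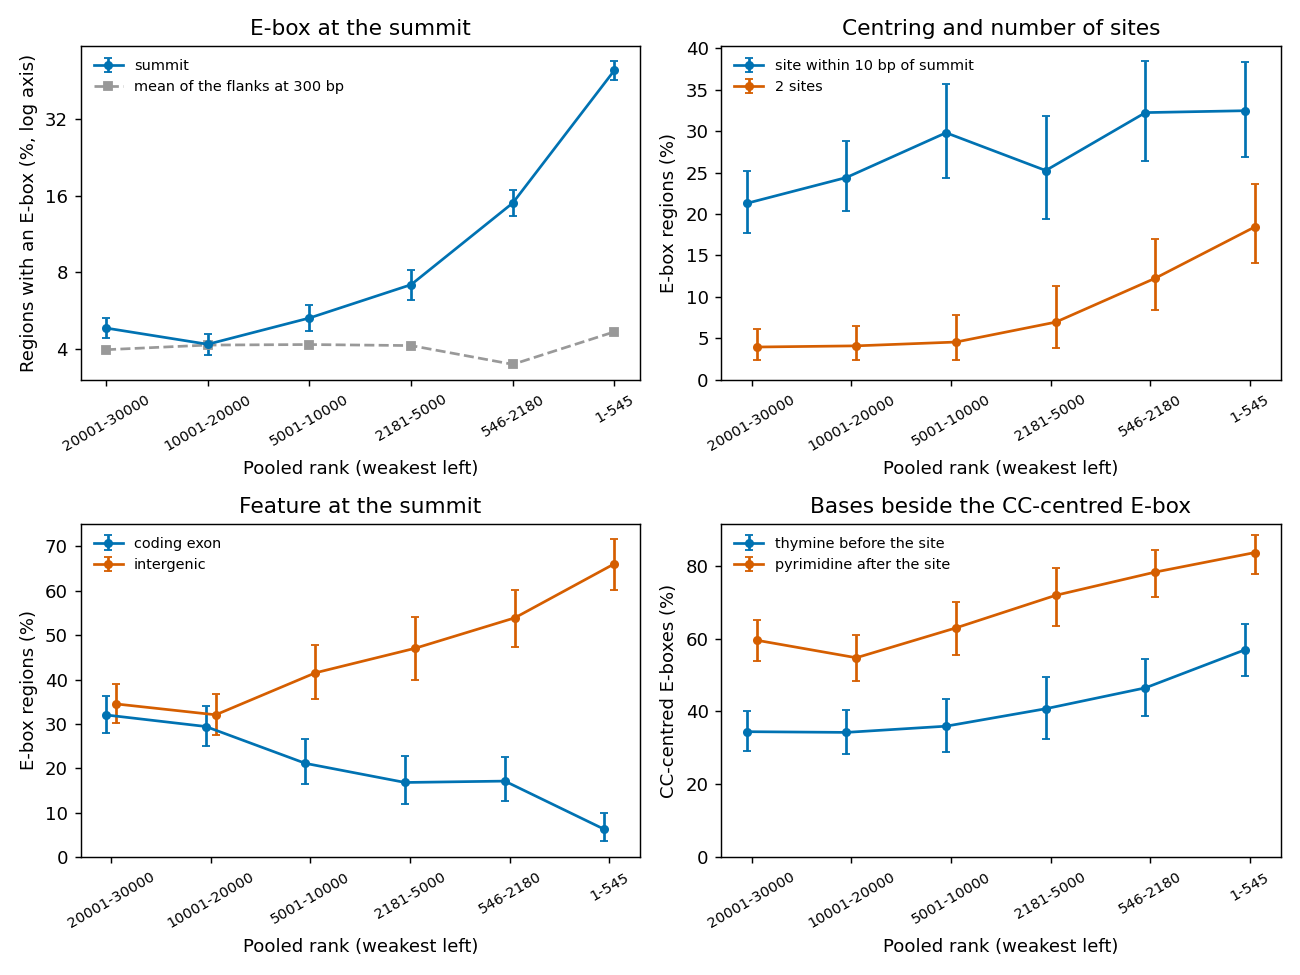
Shares in percent (vertical axes) by bin of pooled rank, weakest bin at the left (horizontal axes): regions with an E-box at the summit and at the flanks (log axis), and, among E-box regions, centring, pairs of sites, feature at the summit and bases beside the CC-centred class. Bars are 95% exact intervals. The weakest bin holds an E-box at 4.84% of summits and the optimal peaks at 49.7%.

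Weak E-box summits lay in coding sequence more often than optimal ones. Coding exons held 368 of 1369 (26.9%, interval 24.5% to 29.3%) against 17 of 271 optimal E-box summits (6.27%, interval 3.70% to 9.85%), and intergenic sequence held 37.0% against 66.1% (Fisher's exact test, BH over 7 features, adjusted p = 2.0e-15 and 1.1e-17). Introns held 29.3% of weak and 21.8% of optimal E-box summits (Fisher's exact test, adjusted p = 0.028). The intron difference did not pass with either replicate alone, with 25 bp either side of the summit, with the stronger 49.9% of optimal peaks, or with weak regions beyond rank 15000 (exact test, the lowest adjusted p = 0.068). UTRs, pseudogenes and non-coding RNA exons did not pass.

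Set against weak regions without the site, which come from the same ranks, the picture was closer. Coding exons held 26.9% of weak summits with the site and 21.8% of those without (Fisher's exact test, BH over 7 features, adjusted p = 9.3e-05). Introns held 29.3% with the site and 33.3% without (adjusted p = 0.0046 by the same exact test). In 3' UTRs the shares were 2.19% with and 4.10% without (exact test, adjusted p = 0.00077). Intergenic shares were 37.0% and 36.1% and did not pass (exact test, adjusted p = 0.53). The mean G and C content of the summit window, site included, was 37.1% with the site and 32.8% without, and its part in these differences was not tested.

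**Figure D4:**
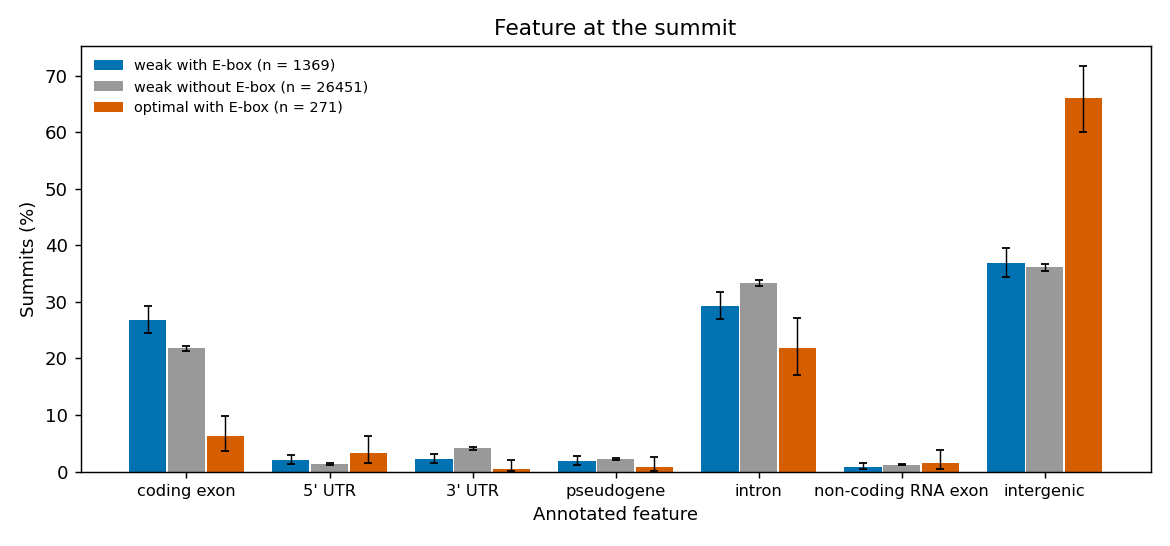
Share of summits in percent (vertical axis) in each annotated feature (horizontal axis) for weak regions with the E-box, weak regions without it and optimal peaks with it. Bars are 95% exact intervals. Coding exons hold 26.9%, 21.8% and 6.27% in that order.

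Weak regions were also split by the feature at the summit. Sites at the summit exceeded those at the flanks where the summit lay in intergenic sequence or in a coding exon. Only the summit base set the feature, so the flank windows could lie in other features. Intergenic summits held an E-box in 5.03% of 10055 regions, against 4.04% and 3.65% at their left and right flanks (exact sign test, BH over 7 features and 2 sides, adjusted p = 0.0027 and 2.5e-05). Coding-exon summits held it in 6.01% of 6124 regions, against 4.62% and 4.31% (exact sign test, adjusted p = 0.0027 and 0.00015). Their G and C content was 38.7% at the summit and 34.9% at both flanks, whereas in intergenic regions it was 31.3% at the summit against 33.2% and 33.1%. Introns did not pass, at 4.35% against 3.79% and 4.23% (exact sign test, adjusted p = 0.097 and 0.83). In 3' UTRs the summit held fewer sites, 2.69% of 1114 against 5.03% and 5.30% (exact sign test, adjusted p = 0.010 and 0.0078), with 29.8% G and C at the summit against 34.8% and 34.6%. The part of base composition in these values was not tested.

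Coding exons grew more common down the ranks. They held 32.02% of E-box summits beyond rank 20000 and 16.8% of those in the strongest weak bin, above rank 5000 (155 of 484 against 34 of 202, Fisher's exact test, BH over 9 measures, adjusted p = 0.00032). Intergenic sequence held 34.5% against 47.0% (Fisher's exact test, adjusted p = 0.011). A pyrimidine after CACCTG was present in 59.5% against 71.9% of sites (Fisher's exact test, adjusted p = 0.031). Summits within 2000 bp of an optimal one made up 3.31% against 8.42% (Fisher's exact test, adjusted p = 0.029). Centring, pairs of sites, site class, the promoter share and T before the site did not pass in this comparison, which was added after the data had been seen (exact test, adjusted p from 0.21 to 0.27).

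Weak E-box regions lay further from gene starts than optimal ones. The summit fell between 2000 bp upstream and 500 bp downstream of a protein-coding gene start in 585 of 1369 (42.7%, interval 40.1% to 45.4%), against 149 of 271 optimal E-box summits (54.98%, interval 48.8% to 61.0%; Fisher's exact test, p = 0.00023). The median distance to the nearest start was 1451 bp in weak E-box regions, 1521 bp in weak regions without the site and 1106 bp in optimal E-box peaks. The gap to optimal peaks was wide close to the start and narrow further out: 10.4% of weak and 22.5% of optimal E-box summits lay within 200 bp (Fisher's exact test, BH over 5 distances, adjusted p = 1.5e-06), whereas within 5000 bp the shares were 88.0% and 90.8% (adjusted p = 0.22). Against weak regions without the site, the promoter share was 42.7% against 42.2% (Fisher's exact test, p = 0.72). Within 200 bp it was 10.4% against 8.08% (Fisher's exact test, BH over 5 distances, adjusted p = 0.012).

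By chromosome, V held 21.1% of weak and 36.2% of optimal E-box regions (Fisher's exact test, BH over 6 chromosomes, adjusted p = 1.8e-06). Chromosome III held 13.1% against 4.797% and chromosome I 12.6% against 7.01%, with an adjusted p of 0.00013 and 0.014 by the same exact test. Shares by chromosome over all weak regions or the whole genome were not computed. These values therefore do not show which group departs from such a background. The difference on chromosome I did not pass with 25 bp either side of the summit or with regions of exactly 1 site (exact test, adjusted p = 0.088 and 0.067). Base composition outside the site did not pass: at least 40% G or C was reached by 27.8% of weak and 22.1% of optimal E-box windows (Fisher's exact test, p = 0.061). In 8 of the 12 alternative settings run the same difference passed, among them each replicate alone.

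Weak E-box regions were overlapped by regions of both replicate lists slightly more often than weak regions without the site. A region of replicate 1 overlapped 791 of 1369 (57.8%) and one of replicate 2 overlapped 885 (64.6%). Both did so for 427 (31.2%, interval 28.7% to 33.7%), and neither for 120 (8.77%). Among weak regions without the site both overlapped 26.7% (Fisher's exact test, p = 0.00028). Within 4 bins of rank the difference did not pass. The shares were 12.8% with and 11.4% without the site beyond rank 20000, 26.1% and 23.1% between ranks 10000 and 20000, 44.9% and 43.9% between ranks 5000 and 10000, and 67.8% and 63.8% at better ranks (Fisher's exact test, BH over 4 bins, the lowest adjusted p = 0.45). Regions with the site had the higher share in 4 of 4 bins. Over all weak ranks the difference was 4.54 points. It was 2.28 points beyond rank 5000 (Fisher's exact test, p = 0.073) and 0.82 points beyond rank 15000 (exact test, p = 0.53). With the list of replicate 2 in place of the pooled list, only overlap with replicate 1 was counted, which is a different measure. By that measure the difference was 8.06 points (Fisher's exact test, p = 1.3e-09). Where a replicate region overlapped a member, the member's site lay within 50 bp of that region's summit in 53.6% of cases in replicate 1 and 56.4% in replicate 2, against 86.7% and 88.9% for optimal E-box peaks. The pooled list was made from the same reads, so these counts are not independent of the choice of members.

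**Figure D5:**
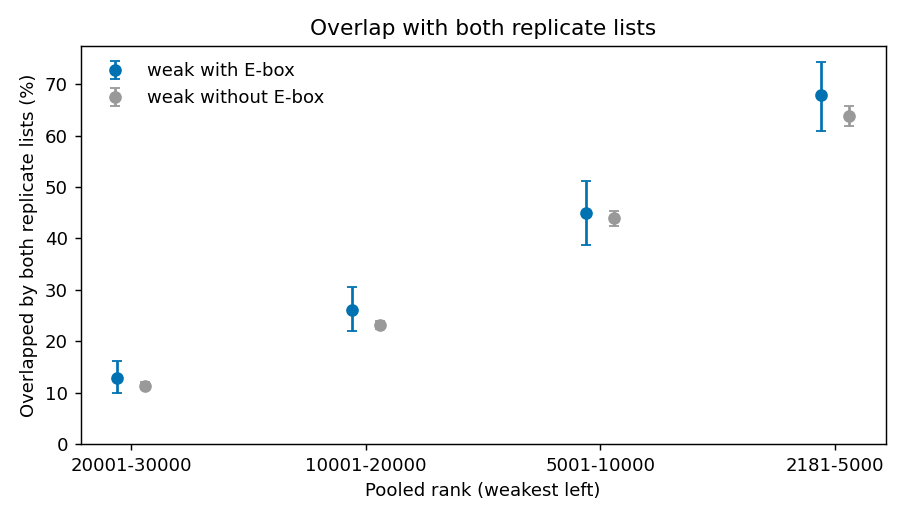
Share of weak regions in percent overlapped by a region in both replicate lists (vertical axis), by bin of pooled rank with the weakest at the left (horizontal axis), with and without the E-box. Bars are 95% exact intervals. Shares with the site range from 12.8% to 67.8%, and in each bin the interval with the site overlaps the interval without it.

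Weak E-box regions lay near optimal peaks more often than weak regions without the site, with 69 of 1369 summits (5.04%, interval 3.94% to 6.34%) against 661 of 26451 (2.499%) within 2000 bp of an optimal summit (Fisher's exact test, p = 2.2e-07). With the list of replicate 1 alone the difference was 1.53 points in place of 2.54 and passed. The 3 members overlapped by the best-ranked regions of both replicates all lay within 2000 bp of an optimal summit. A replicate rank here is that of the best-ranked replicate region sharing at least 1 bp with the member. Whether the ranks below belong to the nearby optimal peak was not tested. An intronic region at chrII:9759300-9759629 ranked 19662 in the pooled list, while the replicate regions overlapping it ranked 119 in replicate 1 and 201 in replicate 2, and its summit lay 200 bp from an optimal one. An intergenic region at chrIV:3772096-3772425 ranked 21896, with 290 and 217 in the replicates, 206 bp from an optimal summit. A region 861 bp upstream of the chemoreceptor gene srz-64 ranked 22932, with 378 and 263, 212 bp from one. In all, 12 members were overlapped by one of the strongest regions of a replicate, a number of regions equal to that of the optimal peaks, and 6 of the 12 lay within 2000 bp of an optimal summit. Only 5 members overlapped an optimal peak themselves.

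Some of the 10 members of best rank lay close to a gene start, and others had no gene in the promoter window. The latter lay 2062 to 5976 bp from the nearest start. Over all members, 10.4% lay within 200 bp of one. At chrII:12406419-12406748, 90 bp upstream of sre-30, a chemoreceptor gene of the Sra superfamily, the pooled rank was 2223, and the overlapping replicate regions ranked 8701 and 9098 in replicates 1 and 2. At chrII:3142859-3143188, 69 bp upstream of the chemoreceptor gene sri-42, the rank was 2259, with 7791 and 5386 in the replicates and 2 sites in the window. The region 117 bp upstream of daf-10, which encodes a component of intraflagellar transport in ciliated sensory neurons, had its site 0.5 bp from the summit and ranked 2338, with 4563 and 9963. Replicate ranks, here again those of the overlapping replicate regions, differed more elsewhere. The region 1883 bp upstream of ric-4, the SNAP-25 orthologue of the synaptic release machinery, ranked 1360 in replicate 1 and 10000 in replicate 2, and lay 4041 bp from an optimal summit. The region at dmsr-5, which is not among these 10, ranked 6522 and 555. An intronic region at chrII:9143906-9144235 ranked 760 and 24699. A coding-exon region 119 bp downstream of the start of fbxl-2, an F-box protein gene, ranked 1990 and 8086, and one 378 bp upstream of delm-2, a gene of the DEG/ENaC channel family, ranked 11759 and 4094. Among the 10 weak regions of best rank, the best rank in a replicate was thus 760.

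By gene, 568 of the 8976 protein-coding genes with a weak region in their promoter window had one with the site (6.33%), and 14 of the 568 also had an optimal E-box peak. Chemoreceptor genes had one in 74 of 674 cases (10.98%, interval 8.72% to 13.6%). Nuclear hormone receptors had one in 14 of 152 (9.21%, interval 5.13% to 15.0%) and collagens in 6 of 67 (8.96%, interval 3.36% to 18.5%). Ribosomal proteins had one in 3 of 30 (interval 2.11% to 26.5%) and neuropeptide genes in 5 of 66 (7.58%, interval 2.51% to 16.8%). Of these intervals, all but that of the chemoreceptors included the 6.33% of all such genes. Besides sre-30 and sri-42, the best-ranked chemoreceptor member was sra-14 (rank 2555). Those of the nuclear hormone receptors, a large family of ligand-regulated transcription factors in the worm, were nhr-156, nhr-122 and nhr-179 (ranks 2449, 2681 and 3994). The best-ranked members of the neuropeptide, ribosomal protein and collagen lists were far down the ranking: nlp-41, ins-9 and nlp-60 (ranks 9937, 15630 and 22364), rpl-36, rps-2 and rps-26 (15372, 21535 and 27527), col-174, col-127 and col-128 (10458, 14379 and 14528). Those of ins-9, rps-26 and col-127 had no overlapping region in either replicate, and the others had one in at least 1 replicate. The same 3 had coding-exon summits, 1187, 1042 and 1342 bp upstream of the named gene. For rpl-36 and rps-26 another gene start was nearer, at 781 and 585 bp. Of 20 bHLH genes 1 had such a region, hlh-16 at rank 15749, and of 5 synaptic and panneuronal genes 1 had, ric-4 at rank 2237. Of 6 genes of the ADL list none had, which allows a share of up to 45.9% by the exact interval, and no member was assigned to hlh-4 itself. Lists were described and not tested.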

How the data were processed

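ChIP-seq of HLH-4-GFP was deposited as headerless region lists. The authors made 1 list of peaks and background per replicate, 1 from the pooled replicates and the optimal peaks, per the descriptive text deposited with the samples. Aligner, peak caller and reads per library: not given in the sources used here. The depth behind each value is therefore unknown. The deposited signal value, whose normalization is likewise not given, was used to rank regions within a list. The other deposited column used, the summit offset, gave the summit. Weak regions are ranks 2181 to 30000, intermediate ones ranks 546 to 2180, and the window around a summit spans 101 bp. All 545 optimal peaks match the strongest pooled regions. The ce10 lists were not used here.

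Sequence was read from WBcel235 and features from Ensembl release 115. Where features overlapped, coding exons came first, then UTRs (5' before 3'), pseudogenes, introns and exons of non-coding RNAs, and the rest was intergenic. A region was assigned the nearest protein-coding gene start in the promoter window. Tests were two-sided: Fisher's exact test for shares and an exact sign test for summits against flanks, with a threshold of 0.05 (scipy 1.17.1, Python 3.11.15). The flank test was tested on simulated data. Flank positions count outward from the hexamer, 5 each side. "One replicate alone" uses that list with its 545 strongest regions as optimal peaks.

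Named members were the 10 of best pooled rank, up to 3 per gene list, any at hlh-4, the 3 with most sites (ties by rank) and the 3 best in both replicates, giving 29. No sequence is shown from chromosome I or for summits in UTRs. The site sequence of 1 optimal peak is not reported here. Members, lists and tests were chosen with earlier results of these data known. Splits by feature, rank and distance, other hexamers and regions far from optimal peaks were added after seeing the data.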

Additional observations from a re-analysis of the deposited data

How the results depend on the processing

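Results were recomputed with sites sought within 25 or 100 bp, weak regions beyond rank 5000 or 15000, each replicate alone, the stronger 49.9% of optimal peaks, single-site regions, and other flank, promoter, composition and overlap limits. Within 25 bp the narrower window removed the calls for centring (−1.03 points, Fisher's exact test, p = 0.80), pairs of sites (−0.49 points) and site class (−7.63 points), turned the promoter share against weak regions without the site (−0.20 points against 0.52) and left 8 of 60 flanking bases called. With the stronger optimal peaks 13 were called, and centring was −7.25 points. Centring within 5 bp gave −3.75 points (exact test, p = 0.11). The share of regions in both replicates was 2.28 points beyond rank 5000 and 0.82 beyond rank 15000, neither passing. The promoter share against weak regions without the site passed within 1000 bp upstream to 200 bp downstream (2.86 points), and ranged from −0.20 to 0.60 over the replicates alone. Base composition, 5.62 points as reported, passed at 10.5 points with 25 bp, 7.44 with 100 bp, 6.48 beyond rank 5000, 6.43 beyond rank 15000, 9.14 with the stronger peaks, 6.89 at 45% G or C, and 6.52 to 10.3 over the replicates. The cause was not tested. In all, 75 of 93 recomputed values with a test kept direction and side of the threshold, and 36 of 38 counts of calls stayed within 1.5 times the count reported, which does not mean the same calls. No paired analysis was possible because both replicates belong to 1 group. Depth is unknown and limits every weak rank.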
